A study of Mus musculus with 2 samples.

Results

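The genes described here are 9 genes of basophil and eosinophil granules and surface receptors: Prss34, Mcpt8, Cpa3, Ms4a2, Fcer1a, Cd200r3, Prg2, Csrp3 and Cyp11a1. They were chosen by symbol, and all 9 were found among the 31053 genes listed in both count matrices. They were measured by single-cell RNA sequencing of progenitors from the bone marrow of C57BL/6 mice, a sort of live CD45+ cells that lacked lineage markers and had CD127, which the gene Il7r encodes. There were 2 libraries, 1 of LCR1-/- animals (LCR1 knocked out, KO) and 1 of LCR1+/+ animals (wild type, WT). Each library pooled animals aged 8 to 12 weeks, males and females in the same number, and the study's question was how deletion of LCR1 bears on ILC2, the innate lymphoid cells of group 2. LCR1 is not a row of the matrices, so its deletion was not checked here. With 1 library per genotype, no difference between KO and WT has a replicate check, no p-value is given, and all intervals are 95% intervals for counting error only.

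Basophils and mast cells carry the high-affinity receptor for immunoglobulin E (IgE) and store proteases and histamine in granules that they release when that receptor is cross-linked. Eosinophils have their own granule proteins, among them the major basic protein encoded by Prg2. In the marrow, basophils arise from GATA2-dependent progenitors, and they do not belong to the lymphoid cells that a CD127 sort is meant to collect. Among the genes described, Prss34 and Mcpt8 encode mouse basophil serine proteases (mMCP-11 and mMCP-8), and Cpa3 encodes carboxypeptidase A3, a granule protease that mast cells, basophils and some progenitors share. Fcer1a and Ms4a2 encode the alpha and beta chains of the IgE receptor, and Cd200r3 an activating receptor of basophils and mast cells. Cyp11a1 encodes the enzyme that starts steroid synthesis from cholesterol, and Csrp3 a LIM-domain protein best known from striated muscle.

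Levels are counts of unique molecular identifiers (UMIs) of a gene, scaled to 1000000 UMIs of the same cells (CPM). In this 3' assay a UMI stands for a molecule whatever its length, so levels were not scaled by gene length. How far genes differed in capture and counting was not tested, so their order by level is a description of counts. A kept barcode had 1000 genes or more and no more than 10% mitochondrial UMIs, which left 4343 KO cells with a median of 7261 UMIs and 3290 WT cells with a median of 5371.5. Each kept cell was given to 1 of 13 gates by lists of 10 markers, none of them a gene described here, if at least 3 markers were detected and at least 2 more than of any other list. The matrices of KO and WT shared 75 barcodes, 0 of them among the kept cells. The basophil gate took 170 KO cells (3.91%, interval 3.36% to 4.53%) and 178 WT cells (5.41%, interval 4.66% to 6.24%), a ratio of KO over WT of 0.724. With barcodes of 500 genes or more, the direction turned and the ratio was 1.52. In both libraries the median basophil-gated cell carried 8 of the 10 markers and no cell sat at the minimum of 3. The cells had low Il7r, the gene of CD127: 165 CPM in KO and 193 CPM in WT, against 1635 CPM in KO and 1609 CPM in WT in the ILC2 gate. The mast cell and eosinophil gates took 0 cells in either library, and in the basophil gate 7 mast cell genes, Tpsb2, Tpsab1, Mcpt4, Mcpt1, Mrgprb1, Mrgprb2 and Tph1, were at 0 in both libraries, as were the eosinophil genes Ear1, Ear2 and Ear6.

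The genes lie apart in the mouse genome (GRCm38), and all 9 are protein-coding. The proteases Prss34, Mcpt8 and Cpa3 lie at chr17:25298394-25300165 (plus strand), chr14:56082166-56085273 (minus strand) and chr3:20215620-20242181 (minus strand). The receptor genes Ms4a2, Fcer1a and Cd200r3 lie at chr19:11615523-11623719 (minus strand), chr1:173221284-173227214 (minus strand) and chr16:44943678-44981380 (plus strand). Prg2, Csrp3 and Cyp11a1 lie at chr2:84980461-84983632 (plus strand), chr7:48830398-48848033 (minus strand) and chr9:58006411-58027023 (plus strand). The start regions of the genes are shown because each of the 9 genes had its highest level of any gate in the basophil gate, Prg2 through 1 KO cell. RefSeq (GRCm38.p6) gave a window of 300 bases, 250 before and 50 after the start, for 8 of the 9, all but Prg2, and 10 windows in all, as Csrp3 and Cyp11a1 had 2 each. The windows were searched on both strands for the GATA motif (AGATAA or TGATAA), a RUNX motif (TGTGGT or TGCGGT) and a C/EBP motif (TTGCNNAA). Windows of the following genes, written 5′ to 3′ along the gene with GATA motifs of either strand in capitals, stand for the proteases and the IgE receptor.
Prss34, chr17:25298144-25298443, plus strand: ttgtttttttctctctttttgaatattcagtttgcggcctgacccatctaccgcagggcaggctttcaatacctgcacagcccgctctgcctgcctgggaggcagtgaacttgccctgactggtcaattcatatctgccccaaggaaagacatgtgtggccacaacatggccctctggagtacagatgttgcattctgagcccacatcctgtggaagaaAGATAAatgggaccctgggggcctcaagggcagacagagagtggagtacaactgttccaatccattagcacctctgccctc
Mcpt8, chr14:56085148-56085447, minus strand: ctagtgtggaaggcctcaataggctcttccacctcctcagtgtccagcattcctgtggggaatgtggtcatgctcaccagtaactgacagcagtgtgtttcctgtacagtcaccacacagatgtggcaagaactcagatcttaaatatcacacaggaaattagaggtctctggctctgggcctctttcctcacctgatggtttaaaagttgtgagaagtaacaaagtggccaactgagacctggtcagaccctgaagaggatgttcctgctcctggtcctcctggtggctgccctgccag
Cpa3, chr3:20242132-20242431, minus strand: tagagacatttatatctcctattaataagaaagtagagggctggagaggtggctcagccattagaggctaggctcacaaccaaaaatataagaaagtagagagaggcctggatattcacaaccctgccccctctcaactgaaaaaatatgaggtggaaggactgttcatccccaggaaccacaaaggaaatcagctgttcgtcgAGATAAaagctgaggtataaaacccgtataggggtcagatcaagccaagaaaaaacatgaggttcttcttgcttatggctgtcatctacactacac
Ms4a2, chr19:11623670-11623969, minus strand: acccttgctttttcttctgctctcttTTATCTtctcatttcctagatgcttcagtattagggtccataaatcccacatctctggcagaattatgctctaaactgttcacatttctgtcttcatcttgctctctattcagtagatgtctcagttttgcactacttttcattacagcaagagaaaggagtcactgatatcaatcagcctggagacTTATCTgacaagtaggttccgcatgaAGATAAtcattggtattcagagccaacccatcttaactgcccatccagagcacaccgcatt
Fcer1a, chr1:173227180-173227479, minus strand: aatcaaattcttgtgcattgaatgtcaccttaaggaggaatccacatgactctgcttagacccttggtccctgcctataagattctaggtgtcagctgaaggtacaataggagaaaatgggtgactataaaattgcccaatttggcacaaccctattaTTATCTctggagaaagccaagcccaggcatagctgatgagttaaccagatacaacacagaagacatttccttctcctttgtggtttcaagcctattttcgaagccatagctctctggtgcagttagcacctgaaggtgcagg

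A GATA motif was found in 5 of the 10 windows, those of 5 genes, against 18.6% of all 32851 windows of that length. It began 31 bases before the start in Prss34, 46 in Cpa3 and 92 in Fcer1a. Ms4a2 had 3 such motifs, which began 224, 37 and 11 bases before the start, and Cd200r3 had 2, at 115 and 39 bases. The windows of Mcpt8, Csrp3 and Cyp11a1 had none of these letters. The RUNX motif was found in 7 of the 10 windows, against 22.4% of all windows, and the C/EBP motif in 4 of the 10, against 10.8%. These matches are descriptions of sequence and were not tied to binding by any data here.

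Basophil-gated cells expressed 8 of the 9 genes, and the summed level over the whole gate was nearly the same in both libraries. Together the 9 genes made up 60406 CPM in KO (interval 60011 to 60804) and 59440 CPM in WT (interval 59077 to 59804), a ratio of KO over WT of 1.02. A difference was counted when it was at least 2-fold with an interval that left out 1, for genes with at least 50 UMIs in all and 50 CPM in the higher library. Under this rule 1 of the 9 genes, Prg2, was called, against 33 of 3293 genes in this gate (percent called 1.00), and the median log2 ratio was 0.0068 over the 9 genes and -0.05 over the 3293. The other 8 genes had ratios of KO over WT between 0.898 and 1.16 over the whole gate, which mixes clusters described below in unlike shares.

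The proteases led. Prss34 had 32187.5 CPM in KO (interval 31899 to 32478) and 32922 CPM in WT (interval 32652.5 to 33193), a ratio of 0.978. Mcpt8 followed with 20837 CPM in KO (interval 20605 to 21071) and 19301.5 CPM in WT (interval 19095 to 19509.5), a ratio of 1.08. Cpa3 came next, well below Mcpt8 in each library, with 2757 CPM in KO (interval 2673 to 2843) and 2744 CPM in WT (interval 2667 to 2823). Its ratio of 1.01 had an interval that held 1, from 0.963 to 1.05. The intervals of the other 2 proteases left out 1 by less than 10%, and they do not cover the spread between animals or between cells.

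The genes of the IgE receptor stood a step lower. Fcer1a had 1366 CPM in KO (interval 1307 to 1427) and 1186 CPM in WT (interval 1135 to 1238), a ratio of 1.15. Ms4a2 had 1332.5 CPM in KO (interval 1274 to 1393) and 1461 CPM in WT (interval 1404 to 1519), a ratio of 0.912. The order of the pair thus differed between the libraries: their intervals overlapped in KO, and Ms4a2 was above Fcer1a in WT. Fcer1g, which encodes the gamma chain that the receptor signals through, had 1625 CPM in KO and 1544 CPM in WT. Of 12 genes of the receptor's gamma chain and proximal signalling, 10 were measured and 0 were called. The largest differences in that list were Gab2, an adaptor, at 70.4 CPM in KO and 94.6 CPM in WT, and Syk, the kinase that binds the gamma chain, at 63.6 CPM in KO and 78.5 CPM in WT.

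Cd200r3, Cyp11a1 and Csrp3 were the lowest of the 8. Cd200r3 had 657 CPM in KO (interval 616 to 700) and 691 CPM in WT (interval 652.5 to 731), a ratio of 0.950 whose interval held 1. Cyp11a1 had 691 CPM in KO (interval 650 to 735) and 598 CPM in WT (interval 562 to 636), a ratio of 1.16. Csrp3 had 481 CPM in KO (interval 446 to 518) and 535 CPM in WT (interval 501 to 571), a ratio of 0.898. Cyp11a1 and Cd200r3 overlapped in KO, and Cyp11a1 and Csrp3 overlapped in WT, so the order of these neighbours was not set by the counts. Near relatives in the same cells were lower or absent: Cd200r1 had 135 CPM in KO and 112 CPM in WT, Cd200r4 38.6 CPM in KO and 34.6 CPM in WT, and Prss28 35.9 CPM in KO and 39.2 CPM in WT. The genes Mcpt9, Prss29 and Cyp11b1 had 0 UMIs in both. Reads shared between such close copies could have been split or dropped in counting, which limits the levels of Cd200r3, Mcpt8 and Prss34. Fdx1, the electron donor of the Cyp11a1 enzyme, had 33.1 CPM in KO and 36.3 CPM in WT.

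**Figure D1:**
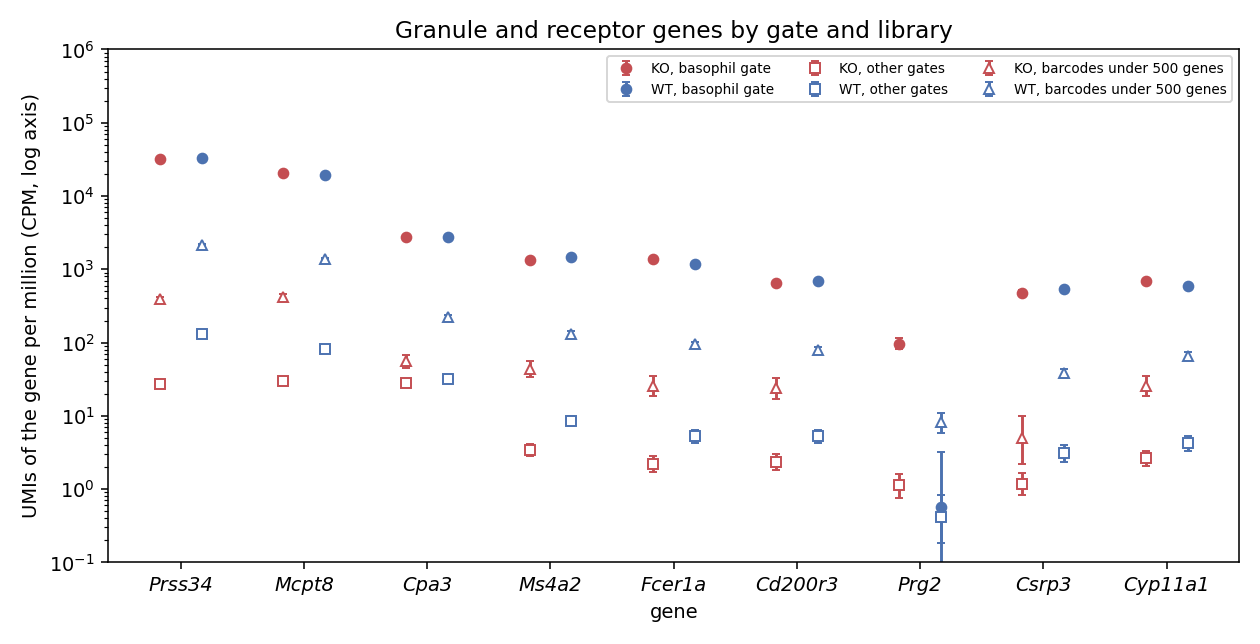
Levels of the 9 genes in CPM (log axis), KO in red and left, WT in blue and right, in the basophil gate (filled circles), in all other gates together (open squares) and in barcodes under 500 genes (open triangles), with 95% counting intervals. In the basophil gate KO and WT lie close together for 8 genes, while Prg2 has 96.7 CPM in KO and 0.577 CPM in WT, and outside it the WT symbols lie higher for every gene but Prg2 in the other gates. A level of 0, as for Prg2 in KO barcodes under 500 genes, is not drawn.

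Prg2 was the exception, and its level in the basophil gate came from 1 cell. The gate held 143 Prg2 UMIs in KO, 96.7 CPM, and 1 in WT, 0.577 CPM, a ratio of 168 with an interval of 29.6 to 6669. All 143 lay in a single KO cell of 15638 UMIs, and without that cell the KO level was 0 and 0 of the 9 genes were called. That cell also held 46 UMIs of Prg3, the second major basic protein gene, 19 of Cebpe, a transcription factor of granulocytes, 2 of Epx, the eosinophil peroxidase, and 2 of Siglecf, a surface lectin of eosinophils. Beside these it held 66 UMIs of Prss34, 24 of Cpa3, 14 of Ms4a2 and 3 of Mcpt8, with 8 basophil markers and 4 eosinophil markers detected. It had 8 UMIs of Csrp3, 1 of Cyp11a1, 0 of Fcer1a and 0 of Cd200r3. The clusters led by Ctsg and by Ccl6, described below, held 0 Prg2 UMIs in KO, so this cell lay outside both. It also had 5 lymphoid progenitor, 4 granulocyte precursor and 3 plasmacytoid dendritic markers. The cell was not among the 8% of KO cells with the highest doublet scores. With those cells left out Prg2 had 106.5 CPM in KO and 0.603 CPM in WT. The scores compare a cell with simulated pairs of kept cells, of which the eosinophil gate took 0. They therefore cannot decide whether a basophil and an eosinophil shared this barcode, which was not tested.

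Over all kept cells, Prg2 was found in 11 KO cells with 219 UMIs and in 17 WT cells with 25 UMIs, 15 of which had a single UMI. The next cell after the one in the basophil gate was a KO cell of the early B gate with 29 Prg2 UMIs and 0 of the 10 eosinophil markers. It was followed by 2 ungated KO cells with 17 and 15 UMIs. With no limit on mitochondrial UMIs, the basophil gate had 80.6 CPM of Prg2 in KO and 45.5 CPM in WT, and Prg2 was not called. The WT level then rested on 1 cell as well. The WT barcodes that this limit had removed held 83 Prg2 UMIs in 2 cells, 82 of them in 1 cell. Over the 10 eosinophil genes as a list, 1 was measured by the rule and 0 were called: Alox15, a lipoxygenase, at 154 CPM in KO and 139 CPM in WT.

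Within the gate, cells varied widely in the amount of granule protease RNA. The 9 genes took a median of 5.16% of a cell's UMIs in KO (lowest 0.0230%, highest 12.1%) and 5.70% in WT (lowest 0.0320%, highest 11.4%). Less than 0.5% was found in 4 KO cells and 15 WT cells. After each cell was thinned to 1500 UMIs, Prss34 had a lowest, median and highest count per cell of 0, 38.5 and 136 in KO and of 0, 46 and 127 in WT. Mcpt8 had 0, 26.5 and 90 in KO and 0, 22.5 and 83 in WT. The variance over the mean, which is 1 for pure counting noise, was 24.2 in KO and 23.7 in WT for Prss34, and 15.99 in KO and 16.64 in WT for Mcpt8. For Ms4a2 it was 1.08 in KO and 1.34 in WT, the lowest of the 8 genes in KO. A median of 6 of the 9 genes was detected per thinned cell in both libraries.

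Thinned cells with a UMI of the gene were the large majority for the proteases and Ms4a2. Mcpt8 was detected in 94.1% of KO cells, Cpa3 in 91.8%, Prss34 in 90.6% and Ms4a2 in 87.1%. Detection fell to 75.3% of KO cells for Fcer1a, 61.8% for Cyp11a1, 60.0% for Cd200r3 and 42.9% for Csrp3. In WT cells, Cd200r3 was detected in 69.7% (interval 62.3% to 76.3%), Csrp3 in 50.6% (interval 43.0% to 58.1%) and Cyp11a1 in 50.0% (interval 42.4% to 57.6%), and in KO cells the intervals were 52.2% to 67.4% for Cd200r3, 35.4% to 50.7% for Csrp3 and 54.0% to 69.1% for Cyp11a1, so that KO and WT overlapped for these 3 genes. With all UMIs, Csrp3 was detected in 77.6% of KO and 80.9% of WT basophil-gated cells and the other 7 genes in 84.8% or more of the cells of either library. In cells of all other gates, thinned in the same way, Csrp3 was detected in 0.302% in KO and 0.753% in WT, and Cd200r3 in 0.378% in KO and 1.56% in WT, with median depths of 8483 UMIs in KO and 5987 in WT before thinning.

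**Figure D2:**
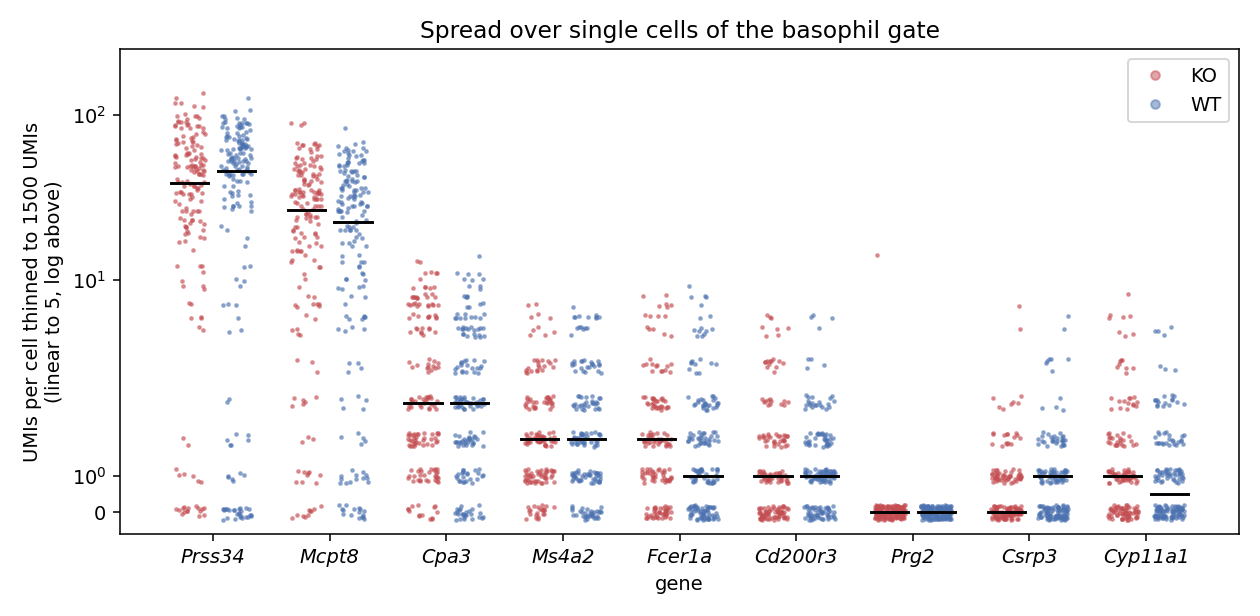
UMIs of each gene per basophil-gated cell after thinning to 1500 UMIs (axis linear to 5, log above), KO in red and left (170 cells), WT in blue and right (178 cells), with black lines at the median. Prss34 and Mcpt8 spread from 0 to over 80 UMIs in both libraries, and Prg2 is at 0 in every cell but 1 KO cell.

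Basophil-gated cells also differed in the presence of cell cycle transcripts. Cells with at least 2 of 12 cycling genes detected after thinning numbered 76 of 170 in KO (44.7%, interval 37.1% to 52.5%) and 99 of 178 in WT (55.6%, interval 48.0% to 63.1%). Mcpt8 was higher in these cells than in the rest, 26246 against 11794 CPM in KO and 22148 against 8759.5 CPM in WT. Prss34 had 34579 against 22858 CPM in KO and 36983 against 17257 CPM in WT, and Cpa3 3140 against 1851 CPM in KO and 2687 against 1519 CPM in WT. Fcer1a had 1772 against 943 CPM in KO and 1461 against 793 CPM in WT.

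The remaining genes were lower or even in the cells with cycling genes. Cyp11a1 had 588 CPM in the cells with cycling genes against 1078 CPM in the rest in KO, and 397 against 937 CPM in WT. Cd200r3 had 693 against 1057 CPM in KO and 606 against 1190 CPM in WT. Csrp3 had 289.5 against 560 CPM in KO, and 505 against 649.8 CPM in WT, where the interval of its ratio held 1. Ms4a2 was even, at 1412 against 1376 CPM in KO and 1401 against 1435 CPM in WT. By the 2-fold rule 1 of the 9 genes was called in KO, Mcpt8, where the percent called over 754 genes was 15.0. In WT 3 of the 9 were called, Mcpt8 and Prss34 higher and Cyp11a1 lower, where the percent called over 771 genes was 22.4. At so few genes, these counts lie near the shares over all genes and are no result about the 9 genes. The cells with cycling genes were also deeper before thinning, with a median of 9817.5 against 5556 UMIs in KO and 10879 against 5108 UMIs in WT, and the part of depth or cell size in these differences was not tested.

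**Figure D3:**
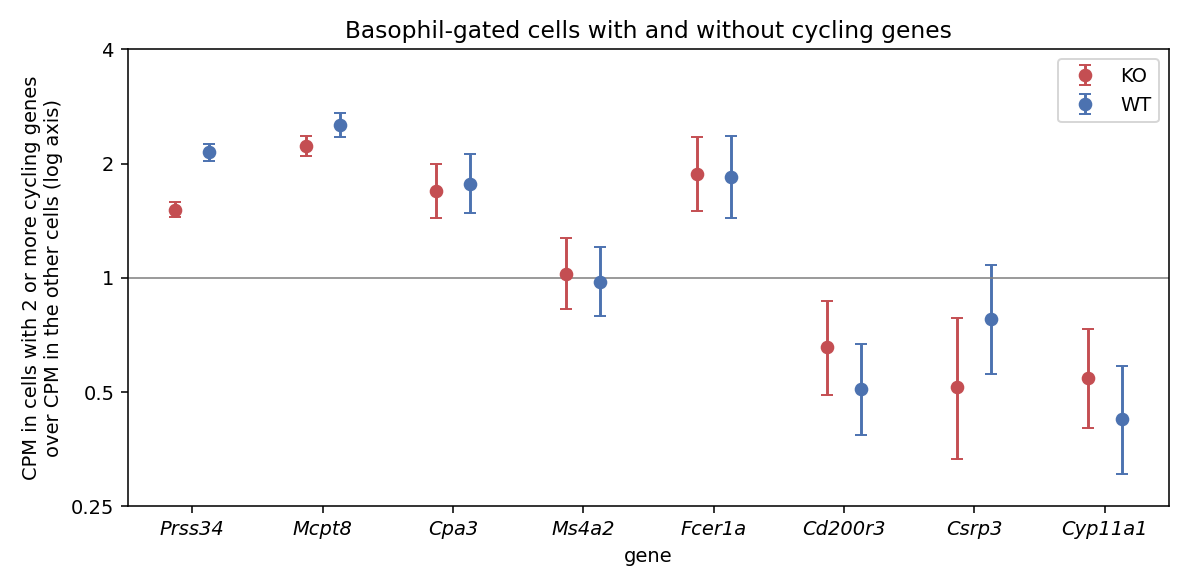
Level of each gene in basophil-gated cells with at least 2 of 12 cycling genes over its level in the other basophil-gated cells (log axis, thinned counts, 95% counting intervals), KO in red and left, WT in blue and right, with a grey line at 1. Prss34, Mcpt8, Cpa3 and Fcer1a lie above the line, Ms4a2 on it, and Cd200r3, Csrp3 and Cyp11a1 below it in both libraries, the WT interval of Csrp3 crossing the line.

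Clusters made without the 9 genes also split the gate, as a description with no test. A cluster led by Ctsg, Ms4a3, Rnase12, Cd63 and Mpo held 49 KO and 79 WT basophil-gated cells, and a cluster led by Ccl6, Ccl9, Ccl3 and Ifitm1 held 118 KO and 93 WT. The levels that follow are sums over all kept cells of a cluster, gated or not, 55 KO and 145 WT cells in the cluster led by Ctsg and 126 KO and 101 WT cells in the one led by Ccl6. Mki67, a marker of proliferation, had 1362 CPM in KO and 1134 CPM in WT in the cluster led by Ctsg, and 75.9 CPM in KO and 91.5 CPM in WT in the cluster led by Ccl6. Mcpt8 was 1.46-fold higher in the cluster led by Ctsg than in the one led by Ccl6 in KO and 1.38-fold higher in WT. Prss34 was 1.12-fold higher in the cluster led by Ctsg in KO and 1.20-fold in WT. In the same direction, Cpa3 was 1.09-fold higher in KO and 1.18-fold in WT, and Fcer1a 1.28-fold in KO and 1.17-fold in WT. For these genes the ratios were smaller than those between cells with and without cycling genes. Cyp11a1 was 2.06-fold higher in the cluster led by Ccl6 in KO and 2.17-fold in WT, and Csrp3 was 2.59-fold higher there in KO and 1.73-fold in WT. In the clusters led by Ctsg and by Ccl6, the ratio of KO over WT was 1.30 and 1.23 for Mcpt8. In the same order it was 1.31 and 1.21 for Fcer1a, 0.632 and 0.950 for Csrp3, and 1.28 and 0.75 for Cd200r3. For Prss34, Cpa3, Ms4a2 and Cyp11a1 it lay between 0.949 and 1.17.

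Other genes of the basophil programme were held to the same rule in this gate. Of 16 cytokine and receptor genes, 14 were measured, 3 were higher in KO and 0 were lower, where the percent called over all genes was 0.668 for higher and 0.334 for lower. Ccl4, a chemokine, had 655 CPM in KO and 172 CPM in WT (3.81-fold higher in KO), Ccl3, a related chemokine, 802 CPM in KO and 385 CPM in WT (2.09-fold), and Osm, a cytokine of the interleukin-6 family, 78.5 CPM in KO and 31.2 CPM in WT (2.52-fold). Within the whole clusters described above, Ccl3 was 1.86-fold higher in KO in the one led by Ctsg and 1.59-fold in the one led by Ccl6, both under 2-fold, and Ccl4 was 5.57-fold and 2.43-fold higher in KO. The largest difference in the other direction was Il1rl1, the interleukin-33 receptor, with 120 CPM in KO and 157.5 CPM in WT, which was not called. Immediate early genes were among the 22 genes called higher in KO in this gate, with Fos at 1540 CPM in KO and 561 CPM in WT and Egr1 at 769 CPM in KO and 334 CPM in WT, and their part in the chemokine differences was not tested.

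Of 16 genes of the granule matrix, mediators and secretion, 13 were measured and 0 were called. In that list Ctsg, a serine protease of myeloid precursors, had 1977 CPM in KO and 2382 CPM in WT, and Ndst2, a sulphotransferase of heparin synthesis, 38.6 CPM in KO and 59.4 CPM in WT. Of 14 lineage transcription factors 6 were measured and 0 called, with Gata2 at 1185 CPM in KO and 1117 CPM in WT and Cebpb at 230 CPM in KO and 200.2 CPM in WT. Of 10 stem and progenitor genes 4 were measured and 0 called. The 12 cycling genes were all measured, 0 were called, and their median log2 ratio was -0.45, where that of all 3293 genes was -0.05. Ccnb2, a mitotic cyclin, had 96.7 CPM in KO and 182 CPM in WT.

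Over gates and libraries, the summed level of the 9 genes varied together with other genes high in the basophil gate. Among genes outside the 9, the summed level of the 9 was followed most closely by Ms4a3 (Pearson r = 0.985 on log2 values), Apoe (0.980), Cd63 (0.980), Gata2 (0.967) and Ctsg (0.967), over 17 combinations of a gate and a library with at least 30 cells. Gata2 is a marker of the basophil gate, and the combinations share 2 libraries, so these values are descriptions. The basophil gate also lay far above the rest, at 60406 CPM in KO and 59440 CPM in WT. The next highest combination, ungated WT cells, had 2133 CPM. A gene high in the basophil gate alone therefore has a high correlation here, and the values mostly restate that. Each gene was set against the sum of the other 8 in the same way. The correlation was 0.986 for Mcpt8, 0.983 for Ms4a2, 0.979 for Prss34 and 0.978 for Csrp3. It was lowest for Cpa3, at 0.908, and for Prg2, at 0.370.

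In the other gates, ungated cells left out, the 9 genes together were at 0.164% of their basophil level in KO and 0.454% in WT. Ungated cells were at 1.28% in KO and 3.59% in WT. A cell entered another gate only with a lead of at least 2 markers over the basophil list, which kept many cells with basophil markers out. All other gates together had 99.2 CPM in KO (interval 95.5 to 103) and 269.9 CPM in WT (interval 263 to 277), which was 2.72-fold lower in KO. The log2 ratio of KO over WT was -1.45, and it was -2.20 with barcodes of 500 genes or more, -2.13 after thinning and -0.95 when basophil cells were chosen by their share of UMIs from the 9 genes, so the size of the difference rests on these choices. The summed level was 146 CPM in KO and 329 CPM in WT in ILC2, 70.2 CPM in KO and 212 CPM in WT in lymphoid progenitors, and 177 CPM in KO and 266 CPM in WT in ILC precursors. It was 139 CPM in KO and 697 CPM in WT in NK or ILC1, 87.5 CPM in KO and 519 CPM in WT in plasmacytoid dendritic cells, and 122 CPM in KO and 213 CPM in WT in early B cells. These 6 gates were all lower in KO, with ratios of KO over WT from 0.169 to 0.667. Their depths differed, with a median of 9047 UMIs in KO and 2769 in WT in plasmacytoid dendritic cells. Early B cells had a median of 11688 UMIs in KO and 3584 in WT. Lymphoid progenitors were deeper in KO as well, and ILC2, ILC precursors and NK or ILC1 were deeper in WT. The part of depth in these ratios was not tested. In 2 of the 6 gates 1 cell carried much of the sum. A WT cell held 146 of the 322 UMIs of NK or ILC1, and without it the WT level was 385 CPM and the ratio 0.360. A KO cell held 29 of the 63 UMIs of early B, all 29 of Prg2, and without it the KO level was 68.4 CPM and the ratio 0.320.

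Prss34 and Mcpt8 were the genes called lower in single gates. In the ILC2 gate Prss34 had 55.4 CPM in KO and 154 CPM in WT, and Mcpt8 45.7 CPM in KO and 106 CPM in WT. These 2 of the 9 genes were called lower, against 15 of 2928 genes in that gate (percent called 0.512). In lymphoid progenitors the same pair was called lower, Prss34 with 21.4 CPM in KO and 100.5 CPM in WT and Mcpt8 with 24.99 CPM in KO and 63.8 CPM in WT, where the percent called lower was 0.218. In ILC precursors only Prss34 was called, with 29.8 CPM in KO and 97.4 CPM in WT, where the percent called lower was 0.441. Mcpt8 there had 35.5 CPM in KO and 70.0 CPM in WT, just short of 2-fold. Except for Prss34 in the ILC2 gate, the genes called reached the 50 CPM of the rule in WT only. A gene that enters through WT alone cannot be called higher in KO, so these calls are descriptions of level. The other genes of the 9 stayed under 50 CPM in these 3 gates in both libraries, except Cpa3 in ILC precursors.

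The low-count barcodes of the same libraries moved with this difference. Barcodes under 500 genes had a summed level of 994 CPM in KO (1816 barcodes) and 4217 CPM in WT (7440 barcodes), 4.24-fold lower in KO. With no more than 10% mitochondrial UMIs, as asked of kept cells, 66 KO and 5838 WT of these barcodes were left, at 1767 CPM in KO and 4714 CPM in WT, a log2 ratio of -1.42 against -2.09 for all of them. By gene, over all of these barcodes, Prss34 had 390 CPM in KO and 2176 CPM in WT there, Mcpt8 424 CPM in KO and 1401 CPM in WT, and Csrp3 5.03 CPM in KO and 37.9 CPM in WT. The spread over these barcodes was uneven. In KO 10 barcodes with at least 2% of their UMIs from the 9 genes held 13.5% of those UMIs, and in WT 438 such barcodes held 47.9%. Without them the level was 864 CPM in KO and 2331 CPM in WT. Barcodes with 0 UMIs of the 9 genes made up 58.0% in KO and 43.2% in WT, where an even spread by depth would give 43.9% in KO and 6.83% in WT. These barcodes thus do not stand for free RNA alone, and the part of free RNA in the levels outside the basophil gate was not tested.

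Cells outside the gate with a large share of these genes were fewer in KO. In the other gates, 0 KO cells and 31 WT cells had at least 0.5% of their UMIs from the 9 genes, and in ungated cells 14 in KO and 90 in WT. Outside the gate, 19 KO and 58 WT cells had enough basophil markers but too small a lead over a further list, and 10 of these in KO and 41 in WT had at least 0.5%. Ungated cells had a summed level of 773 CPM in KO and 2133 CPM in WT. After thinning to 1500 UMIs, Prss34 was detected in 4.88% of cells of the other gates in KO and 16.4% in WT, and Mcpt8 in 6.50% in KO and 13.5% in WT. Without thinning the Prss34 shares were 23.8% in KO and 50.6% in WT.

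**Figure D4:**
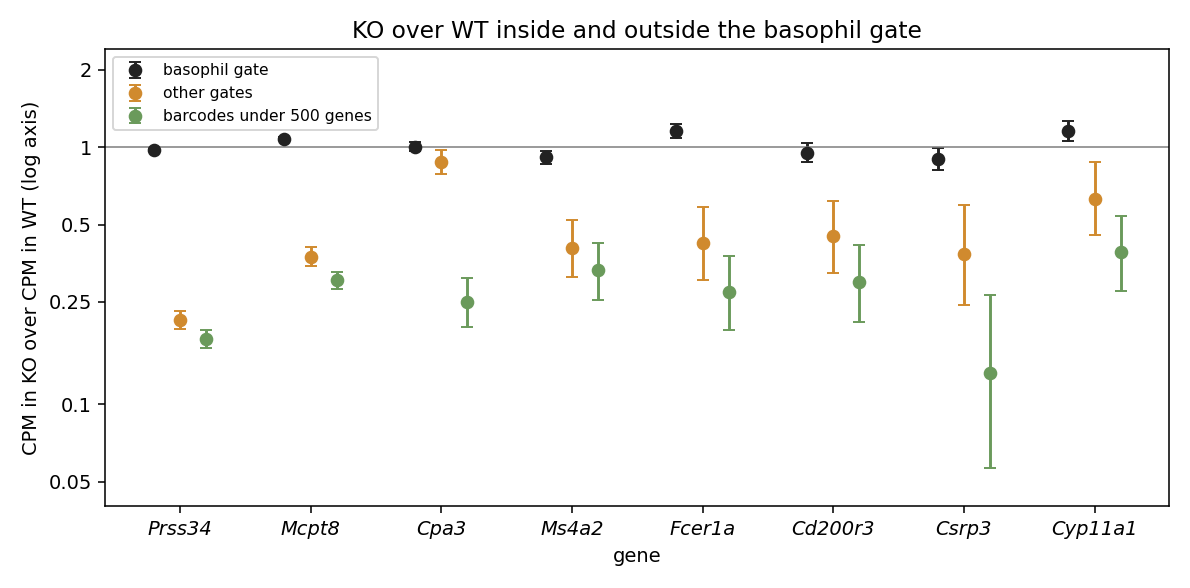
Level in KO over level in WT (log axis, 95% counting intervals) for the 8 genes other than Prg2, in the basophil gate (black), in all other gates together (orange) and in barcodes under 500 genes (green), with a grey line at 1. The basophil gate lies between 0.898 and 1.16 for every gene, and the other 2 sets lie below 1, with Cpa3 in the other gates nearest to it at 0.876.

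Cpa3 differed from Prss34 and Mcpt8 outside the basophil gate. By gate its ratio of KO over WT was 0.544 in ILC2, 0.618 in lymphoid progenitors and 0.600 in NK or ILC1. It was 0.0722 in plasmacytoid dendritic cells and 0.107 in early B, with 1 KO UMI in each. Only in ILC precursors was it above 1, at 1.25. That gate held 514 KO and 135 WT cells, so a level pooled over gates also rests on their mix. In all other gates together Cpa3 had 28.2 CPM in KO and 32.2 CPM in WT, a ratio of 0.876. Prss34 had 27.6 CPM in KO and 130 CPM in WT there. In basophil-gated cells there were 5.20 Cpa3 UMIs per 100 UMIs of Prss34 and Mcpt8 in KO (interval 5.04 to 5.37) and 5.26 in WT (interval 5.10 to 5.41). Barcodes under 500 genes had 6.80 in KO (interval 5.41 to 8.44) and 6.19 in WT (interval 5.81 to 6.58). ILC precursors had 149 in KO (interval 129 to 174) and 46.5 in WT (interval 37.7 to 57.0), and lymphoid progenitors 32.0 in KO (interval 27.8 to 36.8) and 14.6 in WT (interval 12.9 to 16.6). The Cpa3 molecules of these gates were therefore not in the ratio seen in basophil-gated cells or in low-count barcodes of the same library. In plasmacytoid dendritic cells the ratio was 2.50 in KO (interval 0.0618 to 14.8) and 5.92 in WT (interval 3.46 to 9.52), which overlapped the ratio of basophil-gated cells.

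The Cpa3 level of ILC precursors was 97.4 CPM in KO and 77.8 CPM in WT, and it rested on few cells. At least 5 Cpa3 UMIs were found in 28 of 514 KO cells and 8 of 135 WT cells, and these held 71.7% of the gate's Cpa3 UMIs in KO and 69.8% in WT. The highest cell had 31 UMIs in KO and 29 in WT. In those cells the median of Prss34 and Mcpt8 UMIs together was 0.5 in KO and 1.5 in WT. Zbtb16, which encodes the ILC precursor factor PLZF, had 378 CPM in KO and 427 CPM in WT there, and Kit, the stem cell factor receptor, 97.4 CPM in KO and 104 CPM in WT. Such cells were deeper than the gate as a whole, with a median of 15116.5 against 7891.5 UMIs in KO and 20759.5 against 11190 UMIs in WT. Among lymphoid progenitors, 18 KO cells and 12 WT cells had at least 5 Cpa3 UMIs.

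**Figure D5:**
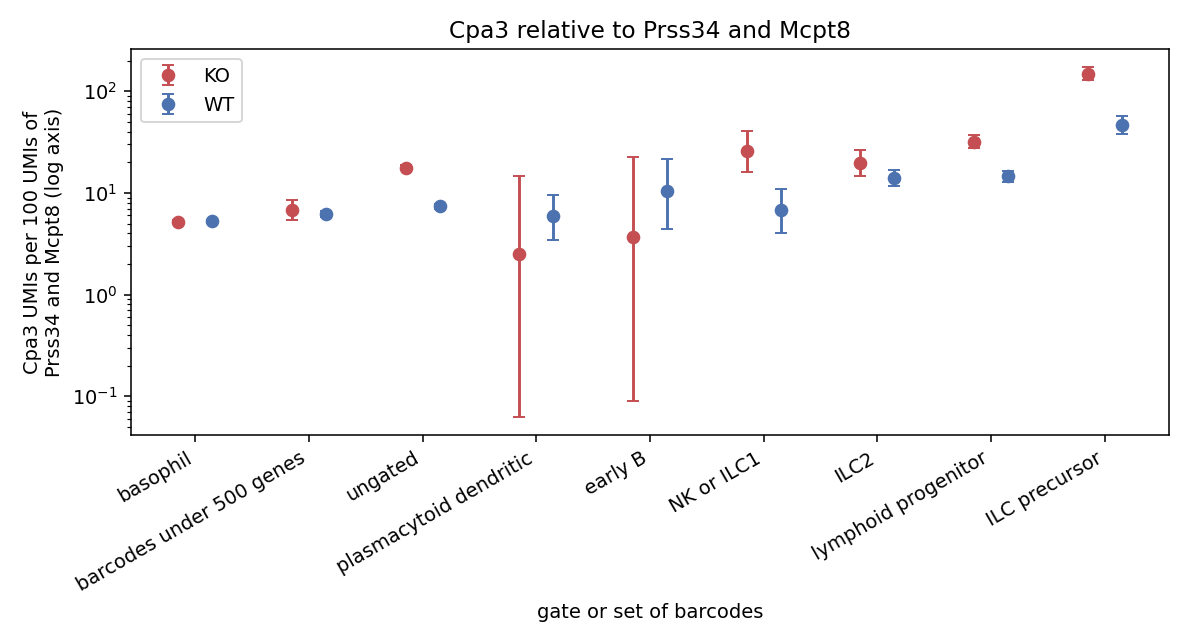
Cpa3 UMIs per 100 UMIs of Prss34 and Mcpt8 (log axis, 95% counting intervals) by gate or set of barcodes, KO in red and left, WT in blue and right. Basophil-gated cells (5.20 in KO, 5.26 in WT) and barcodes under 500 genes (6.80 in KO, 6.19 in WT) lie low, and ILC precursors (149 in KO, 46.5 in WT) lie highest.

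The Prss34 share of the Prss34 and Mcpt8 pair also differed between the libraries outside the gate. It was 60.7% in KO (interval 60.4% to 61.0%) and 63.0% in WT (interval 62.7% to 63.4%) in basophil-gated cells. In barcodes under 500 genes it was 47.9% in KO (interval 45.1% to 50.6%) and 60.8% in WT (interval 60.1% to 61.6%), and in all other gates together 47.7% in KO (interval 45.2% to 50.1%) and 61.6% in WT (interval 60.1% to 63.1%). In each library, then, the share in the other gates had an interval that overlapped that of the low-count barcodes, and in KO both lay below the basophil-gated cells. A lower KO share was also found in further sets. In ungated cells it was 53.7% in KO (interval 52.55% to 54.8%) and 61.2% in WT (interval 60.4% to 61.9%). Barcodes of at least 1000 genes with over 10% mitochondrial UMIs held 4841 Prss34 and 4964 Mcpt8 UMIs in KO. In WT they held 3408 and 2137.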

How the data were processed

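Single-cell RNA sequencing with 10x Genomics 3' chemistry v3.1 gave 1 KO and 1 WT library of pooled animals. The deposited values are unnormalised UMI counts by gene and barcode from Cell Ranger 3.1.0, per the file headers. The submitters' processing notes name the build mm10 and also Seurat, with no role stated. The libraries held 52137780 UMIs in 8476 barcodes in KO and 47883132 UMIs in 20293 barcodes in WT, and no barcode had fewer than 500 UMIs in KO or 527 in WT, so the authors deposited barcodes past some minimum. The limit on mitochondrial UMIs removed 1307 KO and 743 WT barcodes of at least 1000 genes.

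Gates, sums, thinning (to 1500 UMIs, seed 0) and intervals were computed with Python 3.11.15, numpy 2.4.6 and scipy 1.17.1. Levels have exact Poisson intervals, shares exact Clopper-Pearson intervals, and ratios the exact binomial interval of 1 count given the sum, all at 95%. Log2 ratios were taken on log2(CPM + 5). The 2-fold rule was tried on simulated Poisson counts, which hold no spread between cells or animals. That trial does not cover a gene carried by 1 cell, such as Prg2. No doublets were removed in the main values: Scrublet, in scanpy 1.11.5, marked 56 KO cells (1.29%) and 7 WT cells (0.213%, a failed call), and leaving out the 8% of cells with the highest scores was an alternative. Other alternatives changed filters, gates, scaling (edgeR 4.0.16 TMM) and clustering (2000 variable genes, 30 principal components, 15 neighbours, Leiden resolution 1).

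The genes, marker lists and gene lists were chosen with earlier results of these data known. Genes named were the 9, up to 4 measured genes per list with the largest log2 ratio of KO over WT in the basophil gate, and the 5 genes most like the summed 9 over gates and libraries. Fcer1g, Fdx1 and the near relatives, Il7r, Fos, Egr1, Id2, Elane and histone genes, and genes that lead clusters or describe the cells with Cpa3 or Prg2, were named after their values were seen. Gene positions are from GENCODE M21 (GRCm38), the build of mm10.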

Additional observations from a re-analysis of the deposited data

Results flagged for a closer look

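Mcpt8, Fcer1a and Cyp11a1 ran in opposite directions inside and outside the basophil gate, and the difference was not tested. For Mcpt8 the ratio of KO over WT was 1.08 in the basophil gate and 0.374 in the other gates together. For Fcer1a it was 1.15 and 0.423, and for Cyp11a1 1.16 and 0.631, in the same order of gates. The UMIs behind the values outside the gate were few for Fcer1a, 63 in KO and 99 in WT, and for Cyp11a1, 76 in KO and 80 in WT.

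Barcodes that the comparisons left out also carried the 9 genes above the level of the other gates. In barcodes of at least 500 but under 1000 genes the summed level was 797 CPM in KO and 3843.5 CPM in WT. In barcodes of at least 1000 genes with over 10% of mitochondrial UMIs it was 1857.5 CPM in KO and 1724 CPM in WT, and 57 KO and 19 WT barcodes with at least 2% of their UMIs from the 9 genes held 78.7% of these UMIs in KO and 73.3% in WT.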

How the results depend on the processing

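The ratio of KO over WT of the basophil share (0.724) turned to 1.52 with barcodes of 500 genes or more, and was 0.557 with clusters made without the 9 genes and 0.480 with cells chosen by at least 0.5% of UMIs from the 9 genes. The summed log2 ratio in the basophil gate (0.023) turned to -0.025 with a lead of 1 marker and -0.060 with no limit on mitochondrial UMIs. It was 0.057 with 500 genes or more, 0.0076 without the highest Scrublet scores, 0.12 by clusters, 0.068 by share of UMIs, 0.068 after thinning and 0.061 with TMM factors. The count of genes called (1, Prg2) was 0 with no mitochondrial limit, by clusters, after thinning and without the cell with most Prg2. In the other gates together the log2 ratio (-1.45) was -2.20 with 500 genes or more, -1.29 with a lead of 1 marker, -1.35 with no mitochondrial limit, -1.04 by clusters, -0.95 by share of UMIs and -2.13 after thinning. In low-count barcodes it was -2.09, and -1.42 at up to 10% mitochondrial UMIs, -1.90 without any basophil marker and -1.92 under 400 genes. Single genes that turned in the basophil gate were Prss34 (-0.033, turned to 0.0020 at up to 5% mitochondrial UMIs, 0.056 by clusters and 0.0052 with TMM), Ms4a2 (-0.13, turned to 0.0091 by clusters), Cd200r3 (-0.073, turned to 0.080 by clusters, 0.017 by share of UMIs and 0.047 after thinning), Cpa3 (0.0068, turned to -0.035 at up to 5% mitochondrial UMIs, -0.062 with a lead of 1 marker and -0.076 with no mitochondrial limit) and Prg2 (4.19, turned to -0.54 by clusters and -0.16 without that cell). Cyp11a1 kept its direction and moved from 0.21 to 0.42 by clusters, 0.35 by share of UMIs and 0.43 after thinning. The alternatives without a mitochondrial limit, without the cell with most Prg2 and without the highest cell of each gate were chosen after seeing the data. The cause of each change was not tested beyond the cells or genes an alternative removes. No paired analysis was possible because each genotype has 1 library. One pooled library per genotype and sparse counts outside the gate limit every difference to a description of these libraries.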

Other observations

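The basophil gate held 33 genes past the 2-fold rule, Prg2 among them, 22 higher in KO and 11 lower. The genes lower in KO included Id2, an inhibitor of E proteins, with 31.1 CPM in KO and 129 CPM in WT, and Elane, neutrophil elastase, with 29.8 CPM in KO and 95.2 CPM in WT. Histone genes were among them as well, such as Hist1h2bb with 64.9 CPM in KO and 159 CPM in WT and Hist1h3c with 125 CPM in KO and 258 CPM in WT. Among the genes higher in KO were Jun, a subunit of the AP-1 transcription factor, with 3350 CPM in KO and 1569 CPM in WT, Dusp1, a phosphatase of stress kinases, with 414 CPM in KO and 150.0 CPM in WT, and Nfkbiz, a regulator of NF-kappaB targets, with 123 CPM in KO and 35.2 CPM in WT.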
